A study of Saccharomyces cerevisiae with 16 samples.

Results

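The PIR and TIR genes of budding yeast encode cell wall mannoproteins, and their H3K4me3 peaks were described across the 8 H3K4me3 libraries of the series. The genes were chosen by name, 4 PIR genes (*PIR1*, *HSP150*, *PIR3* and *CIS3*) and 4 TIR genes (*TIR1*, *TIR2*, *TIR3* and *TIR4*), and they are 8 of the 6002 nuclear protein-coding genes in the annotation used. A gene's peaks were those that overlapped a window from 1000 bp upstream of its start to 1000 bp downstream of its end. The names were proposed because peaks at several of them differed between the contexts of the synthetic locus, so the contexts are described here without a test.

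PIR proteins (proteins with internal repeats) are secreted and bound covalently to the glucan of the wall. *HSP150* is the member induced by heat shock, and *CIS3* is the smallest of the family. TIR proteins are rich in serine and alanine and reach the wall through a glycolipid anchor. *TIR1*, *TIR3* and *TIR4* are needed for growth without oxygen, and TIR genes are induced by anaerobic growth and by cold, while in aerated cultures they are held down by repressors such as Rox1 and Mot3. Trimethylation of histone H3 at lysine 4 (H3K4me3) is laid down by Set1 behind initiating RNA polymerase II, so in yeast it is found mostly over the first part of transcribed genes.

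The study asked how active a large stretch of foreign DNA is in yeast. All strains were BY4741, a haploid laboratory strain that lacks *URA3*, *MET17* and *LEU2* and carries a defective *HIS3*, and carried either synHPRT1, a human *HPRT1* locus, or synHPRT1R, the same sequence in reverse order. The locus was held as a yeast artificial chromosome (YAC, a circular episome with a *LEU2* marker) or was integrated on chromosome XI at YKL162C-A, 972 bp downstream of the *PIR3* gene. Locus and context together gave 4 groups, each with 2 replicates from colonies of one strain. The spread within a group is therefore that between colonies and not between independently made strains. An SD over the 4 libraries of a context or of a locus joins 2 groups, and so also holds the difference between their strains. Cultures grew at 30 °C to an optical density of about 0.6. YAC strains grew in SC-Leu, a synthetic medium, while integrated strains grew in the rich medium YPD. In every comparison of contexts, the place of the locus and the medium therefore cannot be told apart. No control library (IgG) was analysed here.

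Across the series, a library's list had 3463 to 4049 peaks and gave no read total. Depth was read from the genome-wide background that the peak caller used, 76.2 to 98.9 fragments, recovered from the fold and p-value of each peak. The library synHPRT1R YAC replicate 1 stood apart with the fewest peaks and the highest background. The summit level of a peak is the number of fragments over its summit divided by that background. Over all 4498 genes with a summit in every library, the median log2 summit level was 0.25 higher in integrated than in YAC libraries, and differences between contexts are read beside that shift. The lowest summit level called at the genome-wide background lay between 1.25 and 1.33, so a site without a peak could still hold fragments below that level. Where the local background (that around the peak) was higher, a site above that level could also go without a peak. Peaks overlapped the *URA3* and *MET17* genes in 0 of 8 libraries and *LEU2* in all 4 YAC libraries and no integrated one, and peaks lay over *HIS3* in 8 of 8. The labels disagree on synHPRT1 YAC replicate 2 (its source name gives synHPRT1R), and the title and genotype were followed.

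The 8 genes lay at 5 places in the genome (coordinates in sacCer3). *PIR1* (YKL164C, chrXI:141794-142819, minus strand) and *PIR3* (YKL163W, chrXI:144401-145378, plus strand) are divergent, with starts 1581 bp apart. *HSP150* (YJL159W, chrX:120449-121690, plus strand) and *CIS3* (YJL158C, chrX:122265-122948, minus strand) are convergent, with 574 bp between their ends. *TIR4* (YOR009W, chrXV:344335-345798, plus strand) and *TIR2* (YOR010C, chrXV:346195-346950, minus strand) are convergent as well, 396 bp apart. *TIR1* (YER011W, chrV:175248-176012, plus strand) and *TIR3* (YIL011W, chrIX:333727-334536, plus strand) stand alone. Windows of paired genes overlap, so a peak between them counts for both. Gene starts are start codons in this annotation.

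At 3 of these places, every integrated library had a peak at a position where no YAC library had one. The stretch covered in all 4 integrated libraries is printed for each place, because these are the bases on which the contexts separate. All 3 lie between protein-coding genes of the annotation used, in which the gene after *PIR3* is YKL162C and YKL162C-A is not listed between them. Sequences are the plus strand of the RefSeq sacCer3 genome, and the capitals span the 4 peak summits. The stretch downstream of *PIR3* is chrXI:145961-146174, the stretch upstream of *HSP150* is chrX:119852-120006, and the stretch upstream of *TIR1* is chrV:174661-174951.
downstream of PIR3: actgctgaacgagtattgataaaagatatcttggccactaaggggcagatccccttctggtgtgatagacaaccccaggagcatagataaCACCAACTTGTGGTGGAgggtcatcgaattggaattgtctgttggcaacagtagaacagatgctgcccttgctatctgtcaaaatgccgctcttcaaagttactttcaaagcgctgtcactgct
upstream of HSP150: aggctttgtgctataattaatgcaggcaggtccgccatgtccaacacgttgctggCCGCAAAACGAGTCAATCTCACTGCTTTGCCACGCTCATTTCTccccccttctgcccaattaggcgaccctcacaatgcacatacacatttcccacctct
upstream of TIR1: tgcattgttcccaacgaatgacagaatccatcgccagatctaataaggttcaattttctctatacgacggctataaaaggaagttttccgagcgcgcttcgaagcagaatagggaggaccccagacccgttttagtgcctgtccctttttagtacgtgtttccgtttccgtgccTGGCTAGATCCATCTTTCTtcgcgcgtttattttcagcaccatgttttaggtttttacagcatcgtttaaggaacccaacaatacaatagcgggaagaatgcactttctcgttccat
The 4 summits fell within 17 bp downstream of *PIR3*, within 43 bp upstream of *HSP150* and within 19 bp upstream of *TIR1*, and 46.3%, 51.6% and 44.7% of the bases of these stretches were G or C.

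**Figure D1:**
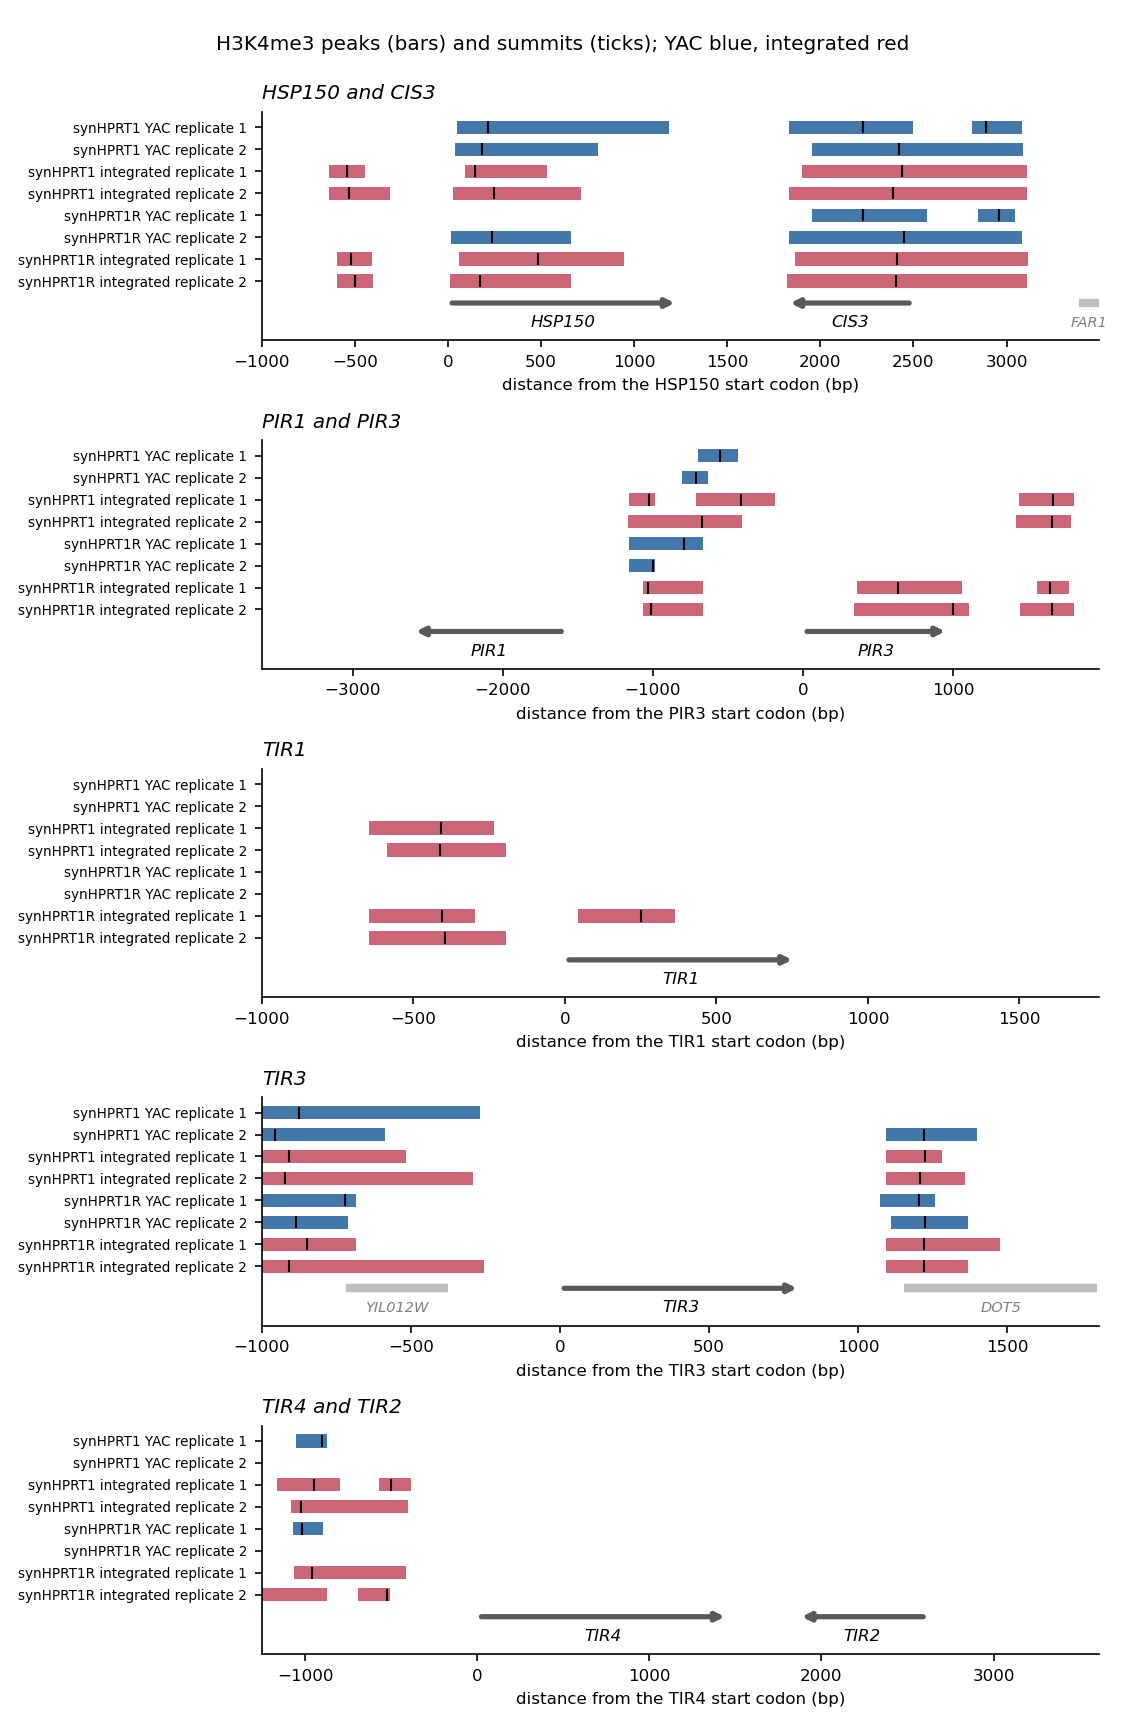
H3K4me3 peaks (bars) and summits (black ticks) in each of the 8 libraries around the PIR and TIR genes, against distance from a start codon in bp, with YAC libraries in blue and integrated libraries in red. Grey arrows are the genes named in the titles, pale grey bars are neighbouring genes. Red bars without a blue counterpart stand upstream of HSP150, downstream of PIR3 and upstream of TIR1, and no bar touches TIR2.

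*CIS3* was the only PIR or TIR gene with a peak over its first 500 bp in all 8 libraries, a state shared by 63.2% of nuclear genes. Its summit level was 2.11 and 2.00 in synHPRT1 YAC, 1.73 and 2.33 in synHPRT1R YAC, 2.97 and 2.54 in synHPRT1 integrated, and 2.69 and 3.01 in synHPRT1R integrated (replicates 1 and 2). The lowest integrated value, 2.54, stood above the highest YAC value, 2.33, and the means were 2.80 ± 0.23 and 2.04 ± 0.25 (SD, n = 4 each). In the YAC lists between 29.3% and 50.7% of nuclear peaks had a lower level, and in the integrated lists between 50.3% and 74.3%. In 6 of 8 libraries the highest summit lay 51 to 108 bp inside the gene, and in the other 2, both replicate 1 of a YAC group, 271 and 272 bp inside it. In those 2 libraries the region was called as 2 separate peaks.

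*HSP150*, the heat shock mannoprotein, had a peak over its coding region in 7 of 8 libraries. Its level there was 2.02 and 1.86 in synHPRT1 YAC libraries, 1.44 and 1.63 in synHPRT1 integrated libraries, and 2.11 and 2.43 in synHPRT1R integrated. In synHPRT1R YAC it was 2.04 in replicate 2, and no peak was called in replicate 1, the library with the fewest peaks. The contexts overlapped, and the 2 synHPRT1 integrated values were the lowest of the 7. The summits lay 144 to 483 bp downstream of the start codon.

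A second *HSP150* peak lay upstream, in the 1623 bp between *HSP150* and its divergent neighbour *PIR5* (YJL160C), another gene of the PIR type. It was called in all 4 integrated libraries and in 0 of 4 YAC libraries. Its level was 2.19 and 2.05 in synHPRT1 integrated and 2.10 and 2.26 in synHPRT1R integrated, with −log10 q between 12.9 and 16.7. Summits lay at -542, -530, -521 and -500 bp from the *HSP150* start, and the peaks were 190 to 328 bp wide. The level was thus alike in the 4 libraries that had the peak, at 2.15 ± 0.09 (SD, n = 4). The deposited fold over the local background was lower, 1.93 to 2.11. Across all nuclear genes, 0.283% had an upstream peak in all integrated libraries and no YAC library. That share is background only, since the genes were chosen on this contrast.

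*PIR1* and *PIR3*, which encode paralogues, had low peaks between their starts in every library, but not all at the same place. The peak of synHPRT1 YAC replicate 1 (chrXI:143704-143969) shared no base with that of synHPRT1R YAC replicate 2 (chrXI:143239-143417). In synHPRT1 integrated replicate 1 there were 2 separate peaks. The highest level between the starts was 1.34 and 1.47 in synHPRT1 YAC, 1.53 and 1.49 in synHPRT1R YAC, 1.47 and 1.72 in synHPRT1 integrated, and 1.55 and 1.47 in synHPRT1R integrated. These values are of the stretch and not of a single peak. The contexts overlapped, and only 0.303% to 11.1% of nuclear peaks in the same list had a lower level. The highest summit lay between -1032 and -551 bp from the *PIR3* start. No library had a peak over any base of the *PIR1* gene. Over the *PIR3* gene a peak was called only in the 2 synHPRT1R integrated libraries, at levels of 1.70 and 1.72 and with −log10 q of 7.31 and 8.05.

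Downstream of *PIR3*, on the side of the insertion site, all 4 integrated libraries and 0 of 4 YAC libraries had a narrow peak of 214 to 372 bp. The level was 2.83 and 2.86 in synHPRT1 integrated and 2.04 and 2.23 in synHPRT1R integrated. The −log10 q was 37.2 and 38.2 against 14.3 and 20.6 in the same order. The 4 summits lay 1650 to 1666 bp from the *PIR3* start, in the 2251 bp between *PIR3* and YKL162C. The synHPRT1 integrated values were above the synHPRT1R integrated ones with no overlap, and this single site was not tested, since an exact permutation test of 2 against 2 libraries cannot reach 0.05. The homology arms that directed the landing pad match sacCer3 once each, at chrXI:146136-146350 and chrXI:146508-146829, and by its design the landing pad replaces the 157 bp between them. The summits therefore lay 283 to 299 bp from the junction with the inserted DNA, and the peaks ended 140 to 176 bp short of it, inside the left arm. The reference held the synthetic locus as a separate contig, so read pairs across the junction could not align as pairs. Where the mark itself ends cannot be read from the peak ends. The last 28 bp of the *PIR3* window lie past that junction. The part of the inserted DNA in this peak was not tested. Over all nuclear genes, 0.250% had a downstream peak in all integrated libraries and in no YAC library.

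**Figure D2:**
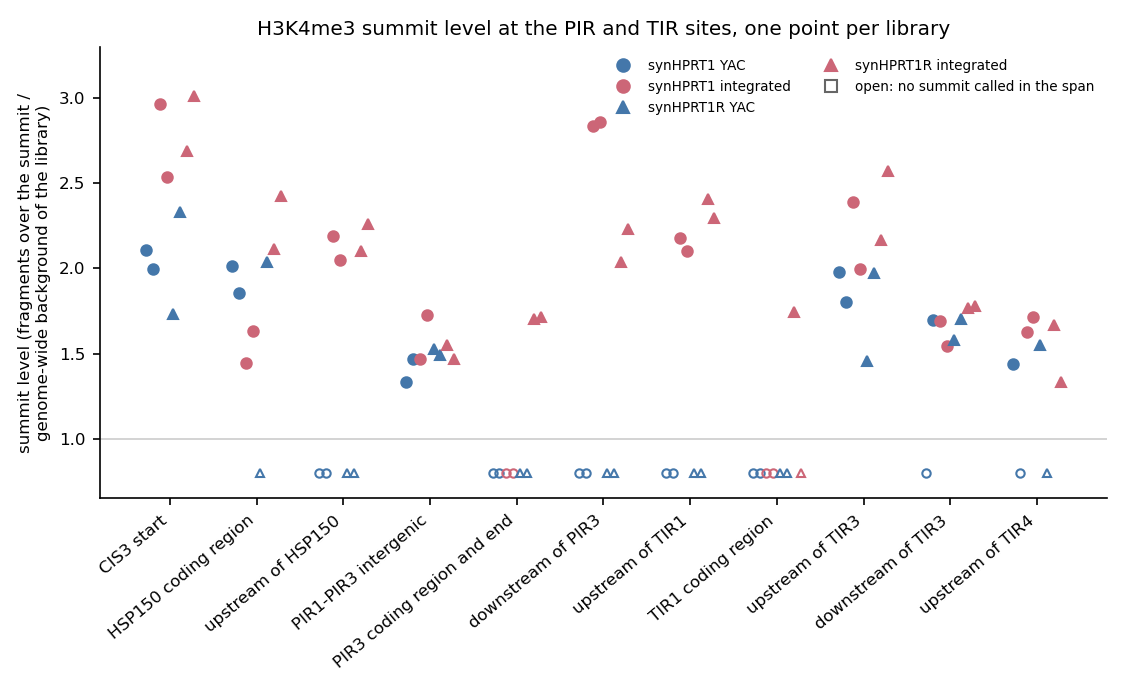
Summit level (fragments over the summit divided by the genome-wide background of the library) at each PIR and TIR site, one point per library, circles for synHPRT1 and triangles for synHPRT1R, blue for YAC and red for integrated. Open symbols below the line at 1 are libraries without a summit in the span and carry no level. Upstream of HSP150, downstream of PIR3 and upstream of TIR1 all 4 blue symbols are open, and at CIS3 the red points, from 2.54, lie above the blue ones, up to 2.33.

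*TIR1*, the cold shock mannoprotein, had no peak anywhere in its window in the 4 YAC libraries and an upstream peak in all 4 integrated libraries. The level was 2.18 and 2.10 in synHPRT1 integrated and 2.41 and 2.29 in synHPRT1R integrated, with a mean of 2.25 ± 0.13 (SD, n = 4). The −log10 q was 11.9, 11.4, 19.7 and 16.9 in the same order. The deposited fold over the local background was lower than the level, 1.85 to 2.17. Summits lay at -408, -413, -404 and -395 bp, in the 1909 bp that separate *TIR1* from YER010C. The coding region of *TIR1* had a peak in synHPRT1R integrated replicate 1 alone, at a level of 1.74. Of all nuclear genes, 0.200% had a window with a peak in all 4 integrated libraries and in no YAC library.

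*TIR2*, a close relative of *TIR1*, had no peak in its window in any of the 8 libraries, as was so for 5.15% of nuclear genes. *TIR4*, whose gene ends 396 bp from that of *TIR2*, had no peak over its coding region in any library. Upstream of *TIR4*, low peaks covered 387, 600, 589 and 314 bp of the window in the integrated libraries and 127, 0, 103 and 0 bp in the YAC libraries (in both lists synHPRT1 replicates 1 and 2, then synHPRT1R replicates 1 and 2). The highest summit between *TIR4* and YOR008C-A had a low level, 1.33 to 1.71 in integrated libraries and 1.44 and 1.55 in the 2 YAC libraries that had a peak. In synHPRT1R integrated replicate 2 the window also took in the edge of a wider peak with a level of 2.20, whose summit lay outside it, nearest to the start of *SLG1*. The start codon nearest to most of them was that of YOR008C-A, the upstream neighbour. Only 2 peaks, both integrated, had *TIR4* as the nearest start.

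*TIR3* had peaks on both flanks and none over the gene. The upstream peak was called in all 8 libraries, at a level of 1.98, 1.80, 1.46 and 1.97 in the YAC libraries and 2.39, 2.00, 2.17 and 2.57 in the integrated ones (same order of replicates). The lowest integrated value, 2.00, lay just above the highest YAC value, 1.98. The start codon nearest to all 8 of these peaks was that of YIL012W, which ends 374 bp upstream of *TIR3*, so they cannot be ascribed to *TIR3*. The downstream peak was called in 7 of 8 libraries at levels of 1.54 to 1.78, and its nearest start was that of *DOT5*, a nuclear thiol peroxidase gene.

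In all, 64 distinct peaks fell in the windows, 22 in YAC and 42 in integrated libraries, and 43 of them had a PIR or TIR gene as the nearest start. Of the 64, each YAC library had 5 or 6 and each integrated library 9 to 11. Nothing is read from this split, because the genes were chosen on this contrast. Over the first 500 bp of the gene, *PIR1*, *TIR2*, *TIR3* and *TIR4* had no peak in any library, which held for 16.9% of nuclear genes.

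**Figure D3:**
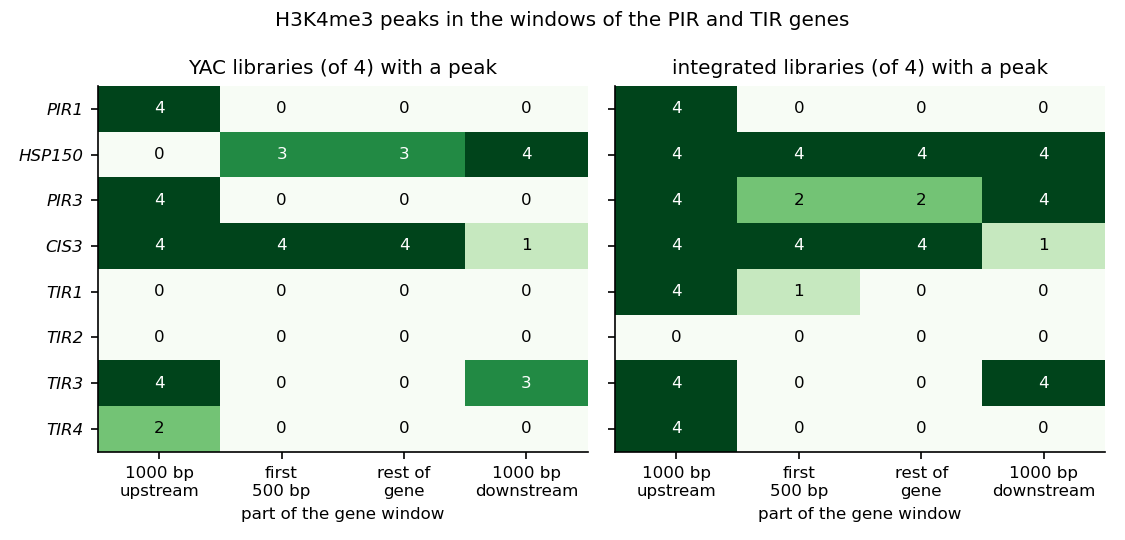
Number of libraries, of 4 per context, with an H3K4me3 peak over each part of the gene window (columns) for each PIR and TIR gene (rows). The cells that read 0 in the left panel and 4 in the right one are upstream of HSP150, downstream of PIR3 and upstream of TIR1, and the row of TIR2 holds only 0.

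The bases of each window that lay under peaks (covered bases) summarise both number and width. For *PIR3* they were 266, 170, 337 and 17 in the YAC libraries and 917, 959, 1246 and 1468 in the integrated libraries, with means of 198 ± 138 and 1148 ± 259 (SD, n = 4 each). The 17 bp of synHPRT1R YAC replicate 2 are the edge of a peak centred nearer to *PIR1*. For *TIR1* they were 0 in every YAC library and 414, 394, 670 and 454 in the integrated ones. *PIR3*, *TIR1* and *TIR4* were higher in every integrated than in every YAC library, 3 of the 7 genes with any covered base, against a background of 7.89% of 5693 genes from which nothing is read here because the genes were chosen on this contrast. In the other direction the count was 0 of 7, with a background of 1.14%. With the 3000 strongest peaks of each library, only *TIR1* remained of the 3.

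*PIR1*, *HSP150*, *CIS3* and *TIR3* overlapped between contexts. *PIR1* had 116, 170, 499 and 179 covered bases in the YAC libraries and 305, 583, 405 and 405 in the integrated ones. The 499 bp of synHPRT1R YAC replicate 1 alone made its contexts overlap. *HSP150* ranged from 285 to 1550 bp in YAC and from 980 to 1458 bp in integrated libraries, and *CIS3* from 820 to 1309 and from 1214 to 1382 bp. The median difference in mean covered bases, integrated minus YAC, was 257 bp over the 8 genes and 43 bp over all nuclear genes, and 65.6% of all nuclear genes had the higher mean in integrated libraries. Nothing about the 8 genes is read from these medians, because the genes were chosen on this contrast. Peaks in the shared windows of paired genes also count for both genes.

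By the highest summit in the window, 4 of the 8 genes had a level in every library. *PIR3*, *CIS3* and *TIR3* were higher in all integrated than in all YAC libraries, where the background was 31.0% of 4498 genes. When each library was centred on its own median, *TIR3* overlapped between contexts and *PIR3* and *CIS3* did not, and 135 of the 4498 genes were higher in all integrated libraries. For *PIR3* the summit compared was that of a peak between *PIR1* and *PIR3* in YAC libraries and that of the downstream peak in integrated ones. For *TIR3* it was the downstream peak in synHPRT1R YAC replicate 1 and the upstream peak in the others.

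**Figure D4:**
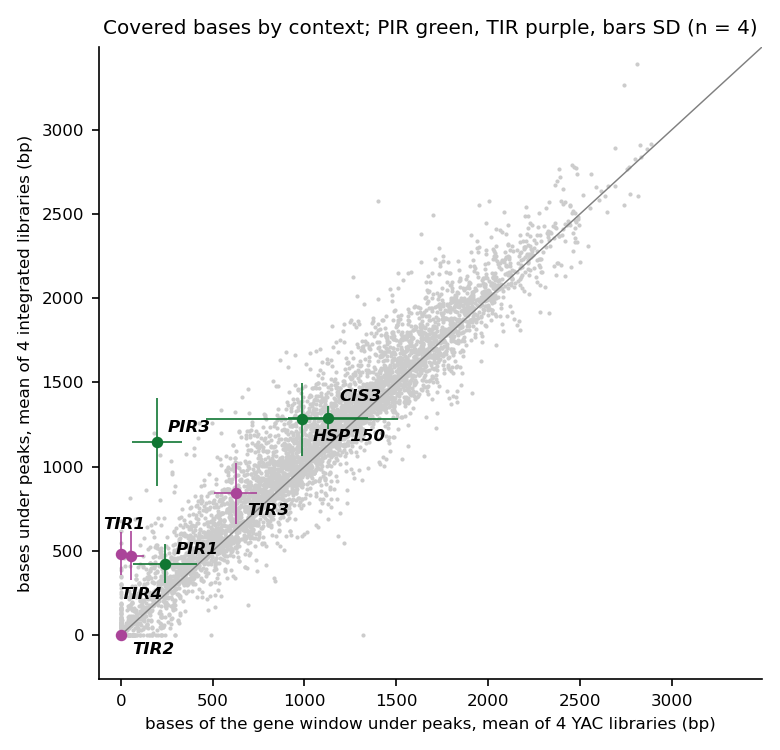
Mean covered bases of each gene window in the 4 integrated libraries against the mean in the 4 YAC libraries, in bp, for all nuclear protein-coding genes (grey) and the PIR (green) and TIR (purple) genes with SD over 4 libraries. The line marks equal means. PIR3 lies at 198 and 1148 bp, TIR1 at 0 and 483 bp, TIR4 at 57.5 and 472 bp, and TIR2 at 0 in both.

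The contrast of the loci, synHPRT1R against synHPRT1 across both contexts, was not used to choose the genes and was tested. It asks whether reversing the foreign sequence went along with a change at these yeast genes. In covered bases the difference ranged from -236 bp (*HSP150*, 1252 ± 277 in synHPRT1 and 1017 ± 515 in synHPRT1R) to 189 bp (*PIR3*, 578 ± 418 and 767 ± 700; SD, n = 4 each). Each of these SDs joins YAC and integrated libraries. Two-sided exact permutation p-values over 4 against 4 libraries were between 0.514 and 0.886 for the 7 genes with a covered base. Libraries were exchanged over both contexts without regard to context, so differences between contexts are part of the spread. This makes a low p hard to reach for *PIR3*, *TIR1* and *TIR4*, whose contexts did not overlap, and their p-values do not show that the loci were alike. The smallest p this design allows is 0.0286, which passes Benjamini-Hochberg adjustment over 5693 genes only if most of them reach it, so the adjusted count of 0 (0.00%) was in effect set by the design. At an unadjusted p under 0.05 there were 88 genes (1.55%), none of them a PIR or TIR gene.

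The summit level was tested with limma, which can pass adjustment in this design, with context as a term. After adjustment 0 of 4498 genes passed (0.00%), and 107 (2.38%) had an unadjusted p under 0.05. For *PIR3* the mean log2 level was lower in synHPRT1R (synHPRT1R minus synHPRT1 -0.15, SE 0.12, 95% interval -0.40 to 0.09, adjusted p = 0.944). For *CIS3*, whose highest summit was the same peak in every library, the difference was 0.01 (SE 0.12, 95% interval -0.23 to 0.25, adjusted p = 0.977). For *PIR3*, *HSP150* and *TIR3* the highest summit in the window was not the same peak in every library, so the difference is one of windows. At *HSP150* it was at times that of *CIS3*, and at *TIR3* once that nearest to *DOT5*. The *HSP150* and *TIR3* differences were 0.01 each. *PIR1*, *TIR1* and *TIR4* lacked a summit in at least 1 library and *TIR2* in all, so this test could not be made for them.

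The *PIR3* difference between loci was not equal in the 2 contexts by its values, since the synHPRT1R libraries were lower in integrated strains and slightly higher in YAC strains. The interaction of locus and context was -0.52 on the log2 scale (SE 0.21, 95% interval -0.97 to -0.08) with an unadjusted p of 0.0240 in limma. It did not pass adjustment over 4498 genes (adjusted p = 1.00), where 111 genes (2.47%) had an unadjusted p under 0.05. Here too the *PIR3* summit is a different peak in each context.

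Promoters are shown for 4 genes that differ in their marks. They are *CIS3*, with a peak in every library, *HSP150*, with the peaks on either side of its promoter, *TIR1*, whose upstream peak in integrated libraries reaches the first of the printed bases in 3 of 4 lists, and *TIR2*, with no peak. Each runs from 250 bases before to 50 bases from the start codon on, on the strand of the gene (RefSeq sacCer3). *CIS3* is chrX:122899-123198, *HSP150* is chrX:120199-120498, *TIR1* is chrV:174998-175297 and *TIR2* is chrXV:346901-347200. Capitals mark exact matches, on either strand, to the motifs listed after them.
CIS3 promoter: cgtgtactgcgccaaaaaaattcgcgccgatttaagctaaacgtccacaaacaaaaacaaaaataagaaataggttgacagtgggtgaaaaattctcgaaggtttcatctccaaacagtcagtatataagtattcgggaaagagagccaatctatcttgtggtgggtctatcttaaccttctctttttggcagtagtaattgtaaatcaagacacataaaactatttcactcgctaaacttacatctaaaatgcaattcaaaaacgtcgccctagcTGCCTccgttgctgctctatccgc
HSP150 promoter: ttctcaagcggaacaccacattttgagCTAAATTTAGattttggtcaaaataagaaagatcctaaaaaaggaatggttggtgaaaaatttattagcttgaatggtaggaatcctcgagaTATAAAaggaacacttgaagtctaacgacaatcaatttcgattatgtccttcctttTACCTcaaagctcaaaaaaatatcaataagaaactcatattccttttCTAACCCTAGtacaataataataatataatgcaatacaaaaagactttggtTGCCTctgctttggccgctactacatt
TIR1 promoter: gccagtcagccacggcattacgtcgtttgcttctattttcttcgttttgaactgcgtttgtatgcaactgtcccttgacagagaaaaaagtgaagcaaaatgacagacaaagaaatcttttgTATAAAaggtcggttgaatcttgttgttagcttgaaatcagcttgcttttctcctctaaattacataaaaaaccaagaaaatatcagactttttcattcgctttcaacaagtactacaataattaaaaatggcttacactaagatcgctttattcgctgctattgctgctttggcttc
TIR2 promoter: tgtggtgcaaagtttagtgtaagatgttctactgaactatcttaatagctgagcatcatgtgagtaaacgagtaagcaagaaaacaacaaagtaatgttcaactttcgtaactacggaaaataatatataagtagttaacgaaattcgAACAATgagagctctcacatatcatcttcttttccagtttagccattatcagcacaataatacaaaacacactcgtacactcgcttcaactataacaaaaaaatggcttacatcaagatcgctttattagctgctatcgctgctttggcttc
The motifs were searched on both strands, and no matches overlapped in these promoters. General and stress motifs were TATAAA for the TATA box, AGGGG for Msn2 and Msn4, and GAANNTTC for Hsf1. For the oxygen and sterol regulators they were ATTGTT (Rox1), with TCGTATA for Upc2 and its paralogue, while Mot3 has the forms AGGTA or else AGGCA. For the wall and cell cycle factors they were CTANNNNTAG for Rlm1 of the cell integrity pathway and then CNCGAAA for SBF. A match is a run of letters, not a bound site.

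*HSP150* held 2 matches to the Rlm1 motif, the factor downstream of the cell wall integrity kinase Slt2. That motif was in 5.57% of 6001 promoters of the same length and in no other PIR or TIR promoter. TATAAA was in the promoters of *PIR1*, *HSP150*, *PIR3*, *TIR1* and *TIR4* and in 45.2% of all promoters. Only this exact run was searched for, so a promoter without it can still hold another form of the TATA box. The promoters of *CIS3*, *TIR2* and *PIR3* hold TATATAAG, which was not counted. The Rox1 letters were in *TIR2* (1 match) and *TIR3* (3 matches) and in 35.2% of all promoters. Of the Mot3 forms, AGGCA was in *PIR1*, *HSP150*, *CIS3* and *TIR3* and in 35.3% of all promoters, and AGGTA was in *HSP150* and in 40.4% of all promoters. The AGGCA matches of *PIR1*, *HSP150* and *CIS3* lay after the start codon, in the coding sequence. So did all but the first of those in *TIR3*, and the second TATAAA match of *PIR3*. Matches to the Upc2 and Ecm22 motif (4.15% of all promoters), the SBF motif (13.8%) and the Hsf1 motif (11.8%) were in none of the 8 windows. The Msn2 and Msn4 motif was in *PIR1* and in 21.6% of all promoters. *CIS3*, *TIR1* and *TIR2* each held matches to a single motif, so the gene with a peak in every library and the gene with none were alike in that count.

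By their share of serine, threonine and alanine the encoded proteins set the families apart, while by repeats *CIS3* was like *TIR1* and *TIR2*. A stringent form of the PIR repeat occurred 8 times in *PIR1*, 11 times in *HSP150*, 8 times in *PIR3* and 1 time in *CIS3*, and 1 time each in *TIR1* and *TIR2*. Serine, threonine and alanine made up 51.6% to 56.1% of the TIR proteins and 37.8% to 44.8% of the PIR proteins. The highest identity was 69.6% between *TIR1* and *TIR2* and 69.3% between *PIR1* and *PIR3*, and in each of these pairs the 2 genes differed in their peaks. Reads from similar copies can be hard to place. Reads were paired, and the study's reporting summary lists them as 36 bases long. Its methods give longer reads for CUT&RUN, and the shorter length was used here. Of all 36-base words in the windows, 90.1% (*TIR4*) to 100% (*TIR3*) occurred once in the genome, and within the genes the lowest shares were 76.7% for *TIR4*, 80.2% for *PIR1* and 81.8% for *PIR3*. In the *TIR2* window, which had no peak, 99.8% of the words occurred once. Pairing places some reads that a single word cannot.

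Genes with the most similar pattern of covered bases over the 8 libraries were found by Pearson correlation among 5675 genes whose windows share no base with a PIR or TIR window. The 8 libraries share strains, media and depth, and the values are a description. For *PIR3* they were *SER1* (r = 0.968), *DOT1* (0.966) and *MSN1* (0.962), and 42 genes reached 0.9. For *TIR1* they were *MMO1* (0.983), *TNA1* (0.979) and YJL163C (0.975), with 49 genes at 0.9 or more. YJL163C had 0 covered bases on average in YAC libraries and 681 in integrated ones. For *TIR4* they were *MST27* (0.980), *ROG1* (0.961) and *HXT5* (0.958), with 32 genes at 0.9 or more.

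Other genes of the cell wall and of its regulation were listed for comparison, 55 in all, of which 53 were in the annotation and 49 had a covered base. By covered bases, 5 of the 49 (10.2%) were higher in every integrated library, near the 7.89% of all genes, and 1, the glucanosyltransferase gene *GAS5*, in every YAC library, where the background was 1.14%. The 5 were *ECM33*, *GAS3*, *GSC2* and the paralogous sterol regulators *UPC2* and *ECM22*. *ECM22* had 687 ± 48 bp in integrated and 78.0 ± 156 bp in YAC libraries, and *UPC2* 1210 ± 156 and 644 ± 436 bp (SD, n = 4 each). For the loci, 0 of the 49 had an unadjusted exact permutation p under 0.05, and the lowest were 0.114 for *EGT2* and *SPI1* and 0.143 for *SLT2* and *TIP1*. *PIR5*, the divergent neighbour of *HSP150*, had 165 ± 121 bp in YAC and 339 ± 73 bp in integrated libraries, which overlapped. *DAN1* and *DAN4*, the mannoproteins induced without oxygen together with the TIR genes, had no peak in their windows in any library, as *TIR2* had none.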

How the data were processed

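H3K4me3 was profiled by CUT&RUN in Saccharomyces cerevisiae, and the peak lists of 8 libraries were used, grouped by GEO's labels. The authors aligned trimmed pairs with Bowtie2 2.2.9 to sacCer3, to which the synthetic locus had been added as a contig, and called peaks in each library alone with MACS2 2.1.0, keeping duplicates and naming no control. Without a control, regions rich in fragments for any reason can be called. The deposited lists give, per peak, a fold enrichment (ratio) over the local background, the −log10 of a p-value and of a q-value, a display score, and the summit position. The score was not used for any result.

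Fragments and background at each summit were solved from the deposited fold and Poisson p-value. In 1 library 1 peak with a misfit over 0.02 got no level. Covered bases and peaks were counted per gene window for 6002 RefSeq genes. Locus differences were tested over all genes with exact two-sided permutation tests (70 exchanges) and with limma 3.58.1 in R 4.3.3, each with Benjamini-Hochberg adjustment at 0.05. The insertion site was placed by matching the study's homology arm sequences to sacCer3. Proteins were translated from RefSeq and aligned with Biopython 1.88. Intervals come from the spread between libraries, without the counting error of each peak. Steps were checked on simulated data. One of the promoter motifs searched is not reported here.

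The members, the gene lists and the spans of the sites were chosen with earlier results of these data known. All 8 members were named, and listed cell wall genes were named by lowest p or by contexts that do not overlap. Alternatives were other peak thresholds (−log10 q of at least 10, or the 3000 strongest peaks), windows, merging, scaling, tests and each library left out. Replicate numbers were not taken as pairs, because deviations of same-numbered libraries did not correlate in every pair of groups.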

Additional observations from a re-analysis of the deposited data

Results flagged for a closer look

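The covered bases of the *PIR1* window in the YAC libraries were 499 bp in synHPRT1R YAC replicate 1 and 116 to 179 bp in the other 3. The gap to the nearest library was 0.836 of the range, just past the critical value of Dixon's test for 4 libraries. Of 13 groups of 4 libraries examined this was the only one past its value, and chance gives about 1 in 20. The same library had the fewest peaks and the highest background of the series, and at the *HSP150* coding region it was the library without a peak.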

How the results depend on the processing

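The counts by part of the window (peaks upstream of *HSP150*, downstream of *PIR3* and upstream of *TIR1* in all integrated and no YAC libraries) stayed at 3 in all 12 alternatives. In 8 of the 12 a library was left out, which by the rule can add a gene to a count but never remove one. The same holds for the counts of genes that do not overlap between contexts, so these 8 do not test how firm such counts are. For whole windows the count was 1 (*TIR1*) and became 2 (*PIR3* and *TIR1*) when weaker peaks (−log10 q under 10) were dropped. For covered bases the 3 PIR or TIR genes higher in integrated libraries became 1 (*TIR1*) with the 3000 strongest peaks, and 3 to 4 when a library was left out, the fourth being *PIR1* without synHPRT1R YAC replicate 1. Over all genes the counts ran from 546 to 749 (integrated higher, highest without synHPRT1R integrated replicate 1) and from 89 to 147 (YAC higher) when a library was left out, and 30 genes were higher in YAC with −log10 q of at least 10. For the summit level, 0 PIR or TIR genes separated with −log10 q of at least 10, since none kept a summit in all libraries, and 3 to 4 when a library was left out, the fourth being *HSP150* without synHPRT1 YAC replicate 1 or synHPRT1 integrated replicate 2. Over all genes the summit level separated 135 genes (integrated higher) and 169 (YAC higher) with each library centred on its median, 854 (integrated higher) with the deposited fold, and 1440 to 2554 and 9 to 11 when a library was left out. The rises when a library was left out go one way by the rule, and the cause of the other shifts was not tested.

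By covered bases the locus test called 0 genes in all 16 alternatives, but 15 of them are permutation tests whose smallest p passes adjustment only if most genes reach it, so only limma on the covered share (226 genes at an unadjusted p under 0.05) could have called any. By summit level the locus test called 1 gene with −log10 q of at least 10 and 0 to 1 when a library was left out, 1 each without synHPRT1 YAC replicate 2, synHPRT1R YAC replicate 1 or synHPRT1R integrated replicate 2, and none of these was a PIR or TIR gene. The gene was *LAS21* at the stricter q and without synHPRT1R integrated replicate 2, and *BRE2*, which encodes a subunit of the Set1 complex, without either YAC library (both are named after their values were seen). Without synHPRT1R YAC replicate 2 the genes at an unadjusted p under 0.05 rose from 107 to 1242. The *PIR3* locus difference kept its sign and did not pass in 14 alternatives, and lay between -0.23 and -0.08 when a library was left out. With the replicate number as a block, 0 genes passed by summit level and 93 had an unadjusted p under 0.05, and by covered bases no gene could pass, since the smallest p is 0.0556. The numbers did not pair the libraries, since the correlations of deviations lay between -0.23 and 0.18. The lists bound what can be seen, because weak marks below the lowest called level leave no peak.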

Other observations

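The first 500 bp of a gene, where H3K4me3 is usual, were without a peak in all 8 libraries for many listed wall genes besides the PIR and TIR genes. Among mannoprotein genes listed for a glycolipid anchor, which TIR proteins also have, it was 10 of 18. Among 4 genes of daughter cell separation (*DSE2*, *DSE4*, *EGT2* and *CTS1*) it was 4 of 4, among glucan and chitin enzymes 1 of 17, and among regulators 1 of 13. For *PIR5* it was the same. The share over all nuclear genes was 16.9%. *FLO5* and *FLO11*, genes of cell adhesion, had no covered base in their windows in any library. Words that occur once in the genome were counted only for the PIR and TIR genes. Whether reads can be placed at the other listed wall genes was therefore not checked.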
